A study of Rattus norvegicus with 6 samples.

Results

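The enzymes, carriers and regulators of fatty acid oxidation were compared between the pancreas of rats fed a control diet and that of rats fed an ethanol diet. The set was a named list of 43 genes, from the synthetases that activate fatty acids to the thiolases that end each round of chain shortening. Of these, 42 had a probe set annotated to that gene alone, out of 10411 genes with such a probe set on the array. Acaa1a, a peroxisomal thiolase, was read only by a probe set that it shares with Acaa1b and is not analysed here. Where a gene had several probe sets, the one with the highest mean over the 6 arrays was used. Each diet group held 3 arrays of pancreas, labelled as replicates 1 to 3. Each array is taken here as 1 rat, which the labels do not state. The labels name the organism as Rattus norvegicus, the tissue and the diet. The sources used here give no strain, sex, age, ethanol dose or feeding time, beyond the word chronic in the title.

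Fatty acids are joined to coenzyme A before they are burned. Long chains then enter mitochondria as carnitine esters, and each round of beta-oxidation uses a dehydrogenase, a hydratase, a second dehydrogenase and a thiolase, with the electrons of the first step passed on by the electron transfer flavoprotein. Peroxisomes shorten very long and branched chains with their own set of enzymes. Many genes of both pathways are targets of the nuclear receptor PPARA. The acinar cell, which makes up most of the pancreas, devotes much of its energy to the synthesis of digestive enzymes, and ethanol feeding is known to alter fatty acid handling in liver and pancreas.

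The deposited values appear to be intensities on a linear scale after a background subtraction, since some lie below 0. A value near or below 0 is read here as a dim signal, though the method of subtraction is not known. The 8 acinar markers measured (Cpa1, Prss1, Prss2, Cel, Pnlip, Cela1, Ctrb1 and Amy2a3) read from 73679 to 171742 on every array, which fits the labelled tissue. Array medians were 543 or 544, so the arrays had been brought to a common level before deposit. Changes are given as ethanol minus control on a log2(value + 50) scale with limma's standard error (SE), and a gene counted as changed at a limma adjusted p under 0.05 over all 9520 probe sets tested. In bulk tissue, fewer cells of a type and less RNA per cell cannot be told apart.

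None of the 35 members bright enough to be tested changed, against 0.410% of all probe sets tested; the limma adjusted p of the members ran from 0.125 to 0.952. At an unadjusted limma p under 0.05, 5 members were higher in ethanol (Etfdh, Pdk2, Crat, Acadvl and Acadm) and 6 were lower (Ucp2, Crot, Acot7, Acaa2, Acadl and Eci1). These are 14.3% and 17.1% of the tested members, beside 7.64% and 11.2% of all 7106 tested genes. The arrays of the diets did not overlap for 6 members that were higher and 6 that were lower, or 17.1% each, beside 11.0% and 15.4% of all tested genes. The share lying lower without overlap is thus close to that of all genes. Members went in either direction, with 14 changes above 0 and 21 below it, beside 3450 and 3656 of all tested genes. Their median was -0.08 beside -0.011 for all tested genes. Without ethanol replicate 2 the 5 higher members became 3, and without control replicate 2 the 6 lower members became 3.

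**Figure D1:**
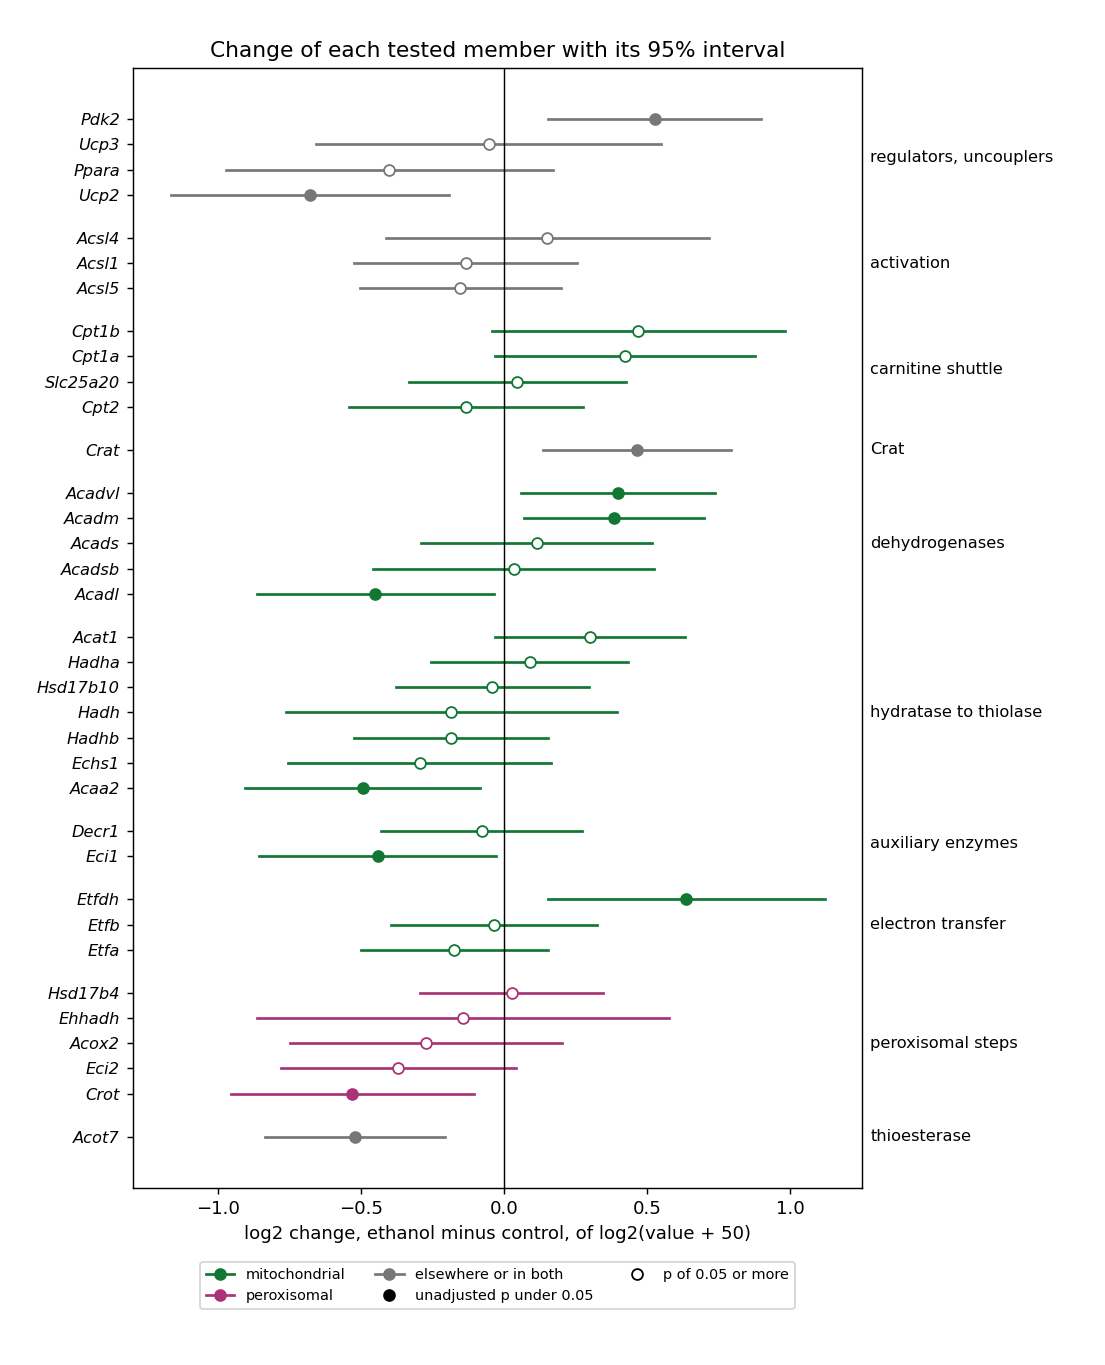
Log2 change (ethanol minus control, horizontal axis) of each of the 35 tested members, ordered by step of the pathway, with its 95% interval from limma as a line. Filled points have an unadjusted limma p under 0.05; green marks mitochondrial steps, purple peroxisomal steps and grey genes placed elsewhere or in both organelles. The points run from -0.68 for Ucp2 to 0.64 for Etfdh, and filled points lie on both sides of 0.

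The 95% intervals show how much change these arrays leave room for. For 33 of the 35 tested members the whole interval lay within a change of 1 on the log2 scale in either direction, which is a 2-fold change. The exceptions were Etfdh, with an interval from 0.15 to 1.12, and Ucp2, with an interval from -1.17 to -0.19. This holds for the probe sets used: of the 5 other tested probe sets of members, those of Acsl1 (-1.26 to -0.17), Pdk2 (0.25 to 1.17) and Hadh (-0.13 to 1.06) had intervals that reached beyond 1. The median SE of the tested members was 0.179, beside 0.178 over all tested probe sets.

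Ppara, the nuclear receptor that switches on many genes of the set, read 1062, 925 and 762 in control rats and 606, 500 and 1005 in ethanol rats. Ethanol replicates 1 and 2 lay below every control rat and ethanol replicate 3 lay among them. Its log2 change was -0.40 (SE 0.25, limma adjusted p = 0.425), with a 95% interval from -0.97 to 0.17. It was -0.20 without ethanol replicate 2 and -0.67 without ethanol replicate 3 (limma adjusted p = 0.682 and 0.214).

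PPARA binds DNA as a pair with RXR at a direct repeat of AGGTCA with a spacer base, so the 250 bases before the start of each gene were searched for AGGTCANAGGTCA on both strands with at most 2 mismatches among its 12 fixed bases. RefSeq promoters of the GRCr8 assembly were found for 38 of the 42 members by gene ID, and 6 of them (15.8%) held such a match. The share was 2.75% among 21851 promoters of protein-coding genes and 3.15% among all 33469 promoters in the table. The 6 windows are shown, 5′ to 3′ along the gene's strand, because they allow the repeat to be set beside how each gene behaved; capitals mark the match, which is a description of the letters and not a binding site.
Acadvl: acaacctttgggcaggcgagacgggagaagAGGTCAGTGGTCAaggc
Acot8: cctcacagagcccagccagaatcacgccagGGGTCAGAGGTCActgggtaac
Crat: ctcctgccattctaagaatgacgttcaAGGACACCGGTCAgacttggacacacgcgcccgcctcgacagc
Echs1: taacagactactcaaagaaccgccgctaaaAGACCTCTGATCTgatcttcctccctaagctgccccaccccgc
Etfa: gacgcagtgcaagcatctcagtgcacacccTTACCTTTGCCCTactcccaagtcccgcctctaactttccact
Ucp3: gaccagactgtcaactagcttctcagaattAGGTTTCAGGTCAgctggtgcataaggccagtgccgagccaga
The windows lie at chr10:55236706-55236752 (Acadvl), chr3:173962189-173962240 (Acot8), chr3:34087280-34087349 (Crat), chr1:204333619-204333691 (Echs1) and chr8:64788077-64788149 (Etfa), all on the minus strand, and at chr1:164227823-164227895 (Ucp3) on the plus strand. Acadvl and Acot8 matched with 1 mismatch, at 17 to 5 and 22 to 10 bases before the start, and the other 4 genes with 2 mismatches. In Echs1 and Etfa the match reads on the opposite strand, so it appears as its reverse complement. Of these 6 genes, Acadvl and Crat are among the 5 members that were higher at an unadjusted p under 0.05. Echs1, Etfa and Ucp3 had changes below 0 that did not reach that level, and Acot8 was too dim to be tested. Etfdh, Pdk2 and Acadm, the rest of those 5, are not among the genes with a match. Nor are the 6 members that were lower at that level. Members for which no promoter was found were not searched, so they could not show a match. Over all tested genes, 7.64% were higher and 11.2% lower at that level. Bases further from the start were not searched, and whether the repeat goes with the change was not tested.

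Pdk2, a kinase that restrains pyruvate dehydrogenase and so favours fat over glucose as fuel, read 1269, 1559 and 1175 in control rats and 2182, 1789 and 1837 in ethanol rats. Every ethanol rat lay above every control rat. The log2 change was 0.52 (SE 0.16, limma adjusted p = 0.161), or 1.44-fold. A second probe set of Pdk2 read 1126, 950 and 935 against 1286, 1681 and 2145, again without overlap (0.71, SE 0.20, limma adjusted p = 0.138).

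Ucp2, a carrier of the inner mitochondrial membrane, read 1028, 974 and 1104 in control rats and 495, 890 and 555 in ethanol rats. All 3 ethanol rats were lower than all 3 control rats, with replicate 2 the nearest to them. The log2 change was -0.68 (SE 0.21, limma adjusted p = 0.162), the lowest of the tested members. Ucp3, its relative of muscle and brown fat, read 344, 725 and 376 against 399, 529 and 396, with overlapping groups (-0.06, SE 0.26). Bdh1, which interconverts the ketone bodies acetoacetate and hydroxybutyrate, was too dim to be tested, at -177, -10 and 0 in control rats and 278, 115 and 15 in ethanol rats, and a second probe set of it read from -131 to 204.

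**Figure D2:**
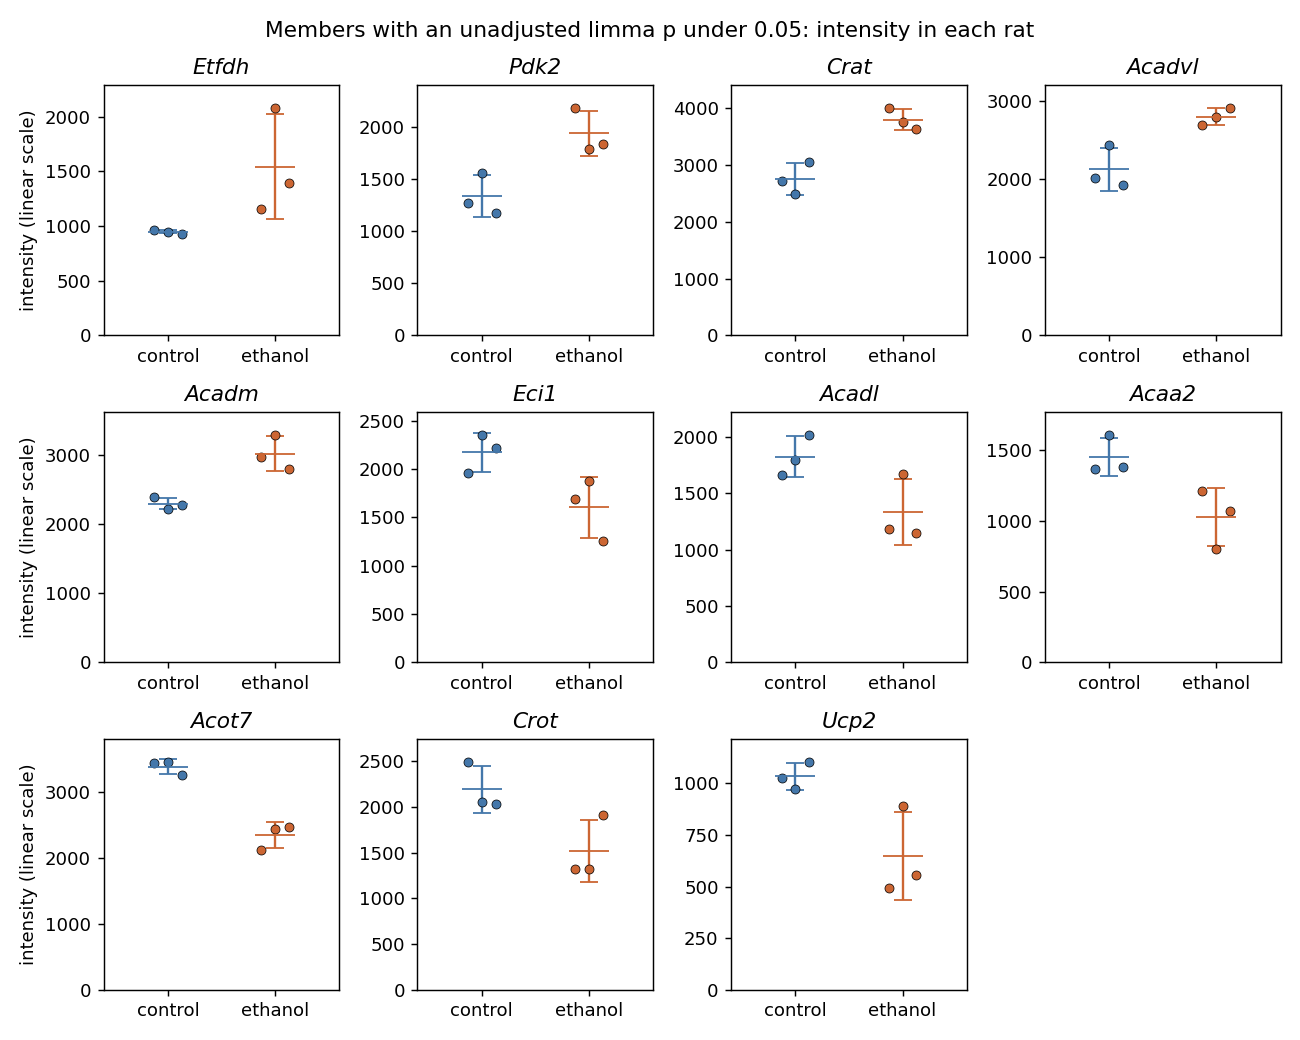
Intensity (linear scale, vertical axis from 0) of the 11 members with an unadjusted limma p under 0.05, in each control rat (blue) and each ethanol rat (orange); the long tick is the mean and the bar the SD of 3 rats. Panels run from the highest log2 change (Etfdh) to the lowest (Ucp2), and the groups overlap only for Acadl.

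The long-chain acyl-CoA synthetases, which activate fatty acids, showed no member at an unadjusted p under 0.05 on the probe set used. Acsl1 read 1174, 916 and 844 in control rats and 782, 980 and 882 in ethanol rats (log2 change -0.13, SE 0.17), with overlapping groups. A second, dimmer probe set of Acsl1 gave 1035, 858 and 552 against 372, 481 and 549. On it every ethanol rat was lower, the nearest pair being 552 and 549 (-0.71, SE 0.24, limma adjusted p = 0.176). Acsl5 had a log2 change of -0.15 (SE 0.15) and Acsl4, which prefers arachidonic acid, one of 0.15 (SE 0.25). Acsl3, at 107 to 244, and Acsl6, a form known from brain and at most 73, were too dim to be tested.

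Among the carriers that bring long chains into mitochondria, the entry enzymes had the highest changes. Cpt1a, the liver form of the outer membrane palmitoyltransferase that sets the rate of entry, read 3295, 3194 and 4000 in control rats and 3567, 5554 and 5153 in ethanol rats. Ethanol replicates 2 and 3 lay above all controls and replicate 1 lay among them (log2 change 0.42, SE 0.20, limma adjusted p = 0.305). Its second probe set gave 0.12 (SE 0.19), with overlapping groups. Cpt1b, the muscle form, read 455, 364 and 554 against 876, 586 and 518 (0.47, SE 0.22, limma adjusted p = 0.311), and ethanol replicate 3 lay within the control range. Without ethanol replicate 1 the change of Cpt1b was 0.26. Slc25a20, the translocase that exchanges carnitine esters across the inner membrane, was at 616 ± 79.2 and 638 ± 91.2 (SD, n = 3; log2 change 0.04). Cpt2, which returns the chain to coenzyme A inside, was at 1493 ± 102 and 1373 ± 288 (SD, n = 3; log2 change -0.13).

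The remaining carnitine acyltransferases differed in the sign of their change. Crat, which handles acetyl groups in mitochondria and peroxisomes and buffers acetyl-CoA, read 2723, 2485 and 3052 in control rats and 4012, 3765 and 3634 in ethanol rats. All 3 ethanol rats were above all 3 controls (log2 change 0.46, SE 0.14, limma adjusted p = 0.161), a 1.38-fold difference. Crot, which passes the medium-chain products of peroxisomes on as carnitine esters, read 2494, 2061 and 2035 against 1324, 1324 and 1914. All 3 ethanol rats were below all 3 controls (-0.53, SE 0.19, limma adjusted p = 0.188). A second probe set of Crot gave -0.24 (SE 0.19), with overlapping groups.

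The acyl-CoA dehydrogenases, which open each round, had changes of either sign. Acadvl, the very-long-chain enzyme, read 2017, 2439 and 1921 in control rats and 2699, 2791 and 2916 in ethanol rats. The groups did not overlap (log2 change 0.40, SE 0.15, limma adjusted p = 0.210). Acadm, the medium-chain enzyme, read 2392, 2230 and 2287 against 2978, 3298 and 2801, also without overlap (0.38, SE 0.14, limma adjusted p = 0.196). Acadl, the long-chain enzyme, read 1657, 1791 and 2016 against 1181, 1669 and 1149. Ethanol replicates 1 and 3 lay below the controls and replicate 2 just inside their range (-0.45, SE 0.18, limma adjusted p = 0.238). Acads, the short-chain enzyme, read 5374, 5081 and 5624 against 7170, 4760 and 5697, and its groups overlapped (0.11, SE 0.18). Acadsb, which acts on short branched chains from isoleucine, was at 481 ± 129 and 489 ± 97.6 (SD, n = 3).

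Of the 7 mitochondrial enzymes from the hydratase to the thiolase, 1 was at an unadjusted p under 0.05, and it was lower. That is 14.3% of them, beside 11.2% of all tested genes that were lower. In each direction 1 of the 7 did not overlap (14.3%), beside 11.0% higher and 15.4% lower of all tested genes. Acaa2, the thiolase that releases acetyl-CoA, read 1370, 1609 and 1385 in control rats and 1211, 804 and 1069 in ethanol rats. Every ethanol rat was lower (log2 change -0.50, SE 0.18, limma adjusted p = 0.198). Acat1, the thiolase that acts on acetoacetyl-CoA, read 6631, 6385 and 5619 against 7267, 8434 and 7261. Here every ethanol rat was higher (0.30, SE 0.15, limma adjusted p = 0.318), though its unadjusted p was not under 0.05.

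The subunits of the trifunctional protein, which carries out the later steps on long chains, had overlapping groups. Hadha, the alpha subunit, read 1415, 1419 and 1471 in control rats and 1305, 1709 and 1600 in ethanol rats (log2 change 0.09, SE 0.15). Hadhb, the beta subunit, read 3802, 4381 and 4899 against 3745, 3969 and 3711 (-0.19, SE 0.15). Hadh, the short-chain hydroxyacyl-CoA dehydrogenase, read 4461, 4601 and 5475 against 2813, 5692 and 4746 (-0.19, SE 0.25), with ethanol replicate 1 the lowest and replicate 2 the highest of all 6. A dimmer probe set of Hadh had the opposite sign, at 392, 383 and 764 against 728, 804 and 568 (0.47, SE 0.26). Hsd17b10, a mitochondrial dehydrogenase that also serves in isoleucine breakdown, read 4393, 4577 and 3998 against 3837, 4729 and 4049 (-0.04, SE 0.15). Echs1, the short-chain hydratase, was at 2487 ± 519 and 2012 ± 398 (SD, n = 3; log2 change -0.30).

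Unsaturated chains need auxiliary enzymes that move or remove double bonds. Decr1, the mitochondrial dienoyl-CoA reductase, had the highest mean of the set and read 6860, 7617 and 7475 in control rats and 6037, 7970 and 6865 in ethanol rats (log2 change -0.08, SE 0.15). Eci1, the mitochondrial enoyl-CoA isomerase, read 1956, 2354 and 2214 against 1686, 1873 and 1252. All ethanol rats were lower (-0.44, SE 0.18, limma adjusted p = 0.242), and without ethanol replicate 3 the change was -0.28. A second probe set of Eci1 read at most 2 and was not tested.

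Electrons from the dehydrogenases pass through the electron transfer flavoprotein to ubiquinone. Etfdh, the oxidoreductase of the last step, read 960, 947 and 932 in control rats and 1154, 2084 and 1393 in ethanol rats. Control rats lay close together (SD 14.0, n = 3), and every ethanol rat was higher, replicate 2 most of all. The difference of 0.64 (log2 scale; SE 0.21, limma adjusted p = 0.174), or 1.55-fold, was the highest of the tested members on all 6 arrays. Without ethanol replicate 2 it was 0.40, below Pdk2 (0.58), Cpt1b (0.53) and Crat (0.47). Etfa, the alpha subunit of the carrier, read 1983, 2148 and 2119 against 1629, 1966 and 1939, lower in every ethanol rat (-0.18, SE 0.14, limma adjusted p = 0.542). Etfb, the beta subunit, read 3276, 3635 and 3178 against 2943, 3867 and 3082, with overlapping groups (-0.04, SE 0.16).

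Besides Crot, 4 peroxisomal members were tested, and none was at an unadjusted p under 0.05. Eci2, an enoyl-CoA isomerase found in peroxisomes and also in mitochondria, read 768, 665 and 715 in control rats and 494, 457 and 701 in ethanol rats (log2 change -0.37, SE 0.18, limma adjusted p = 0.318). Ethanol replicate 3 lay within the control range. Acox2, the oxidase of branched chains and bile acid precursors, read 521, 528 and 600 against 553, 312 and 506 (-0.27, SE 0.21). Ehhadh, the L-bifunctional enzyme and a textbook PPARA target, read 1030, 1062 and 618 against 1299, 614 and 614. Its lowest control rat was at the level of ethanol replicates 2 and 3, and the highest of all 6 was ethanol replicate 1 (-0.14, SE 0.31). Hsd17b4, the D-bifunctional enzyme, was at 2410 ± 207 and 2450 ± 125 (SD, n = 3; log2 change 0.03). Acox3, at 53 to 390, and Acot8, a thioesterase at -48 to 252, were too dim to be tested.

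Set side by side, the 21 mitochondrial steps had a median log2 change of -0.04 and the 5 tested peroxisomal steps one of -0.27, beside -0.011 for all tested genes. Mitochondrial steps were split, with 10 above 0 and 11 below, and 3 (14.3%) in each direction at an unadjusted p under 0.05, beside 7.64% higher and 11.2% lower of all tested genes. Peroxisomal steps had 1 above 0 and 4 below, where all tested genes had 3450 above and 3656 below. At that p, 1 of the 5 (20%) was lower and 0 were higher. Array by array, the median deviation of the mitochondrial steps from the control mean was -0.17, 0.12 and 0.09 on the log2 scale in ethanol replicates 1, 2 and 3. For the peroxisomal steps it was -0.05, -0.59 and -0.11, so that ethanol replicate 2 stood lowest and replicate 1 lay within the controls, which ran from -0.05 to 0.10. Without ethanol replicate 2 the peroxisomal median was -0.05. The difference between the compartments was not tested.

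**Figure D3:**
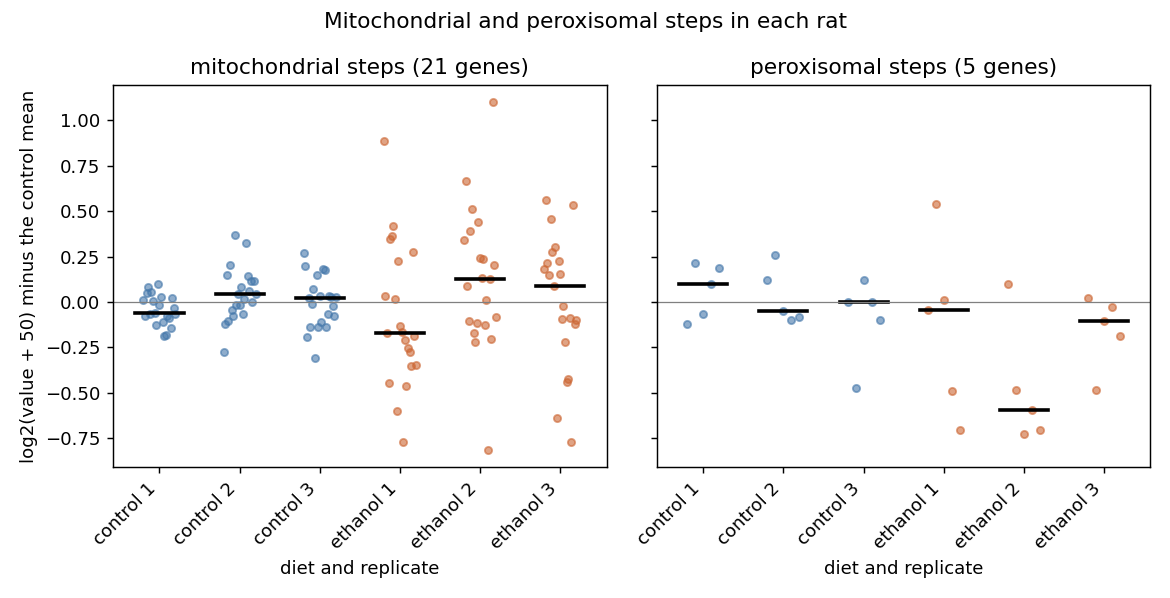
Deviation of each tested gene from its control mean on the log2(value + 50) scale (vertical axis) in each rat, for the 21 mitochondrial steps (left) and the 5 peroxisomal steps (right); points are genes, coloured blue for control and orange for ethanol, and black bars are medians. The mitochondrial medians of the ethanol rats lie on both sides of 0, from -0.17 to 0.12, and the peroxisomal median of ethanol replicate 2 is at -0.59.

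Thioesterases release fatty acids from coenzyme A. Acot7, a cytosolic form abundant in brain, read 3434, 3447 and 3251 in control rats and 2120, 2439 and 2466 in ethanol rats. The groups did not overlap, and its change of -0.52 on the log2 scale (SE 0.14, limma adjusted p = 0.125) had the lowest adjusted p of the set. Acot7 passed in a single alternative, with an intensity trend in the variance prior (-0.52, limma adjusted p = 0.0498). A second probe set of Acot7 read -139 to 250 and was not tested. Acot1, the cytosolic form, at -23 to 235, and Acot2, its mitochondrial relative, at 58 to 301, were too dim to be tested, and probe sets of these closely related genes can take up each other's signal. In all, 7 members were too dim: Acot1, Acot2, Acot8, Acox3, Acsl3, Acsl6 and Bdh1.

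**Figure D4:**
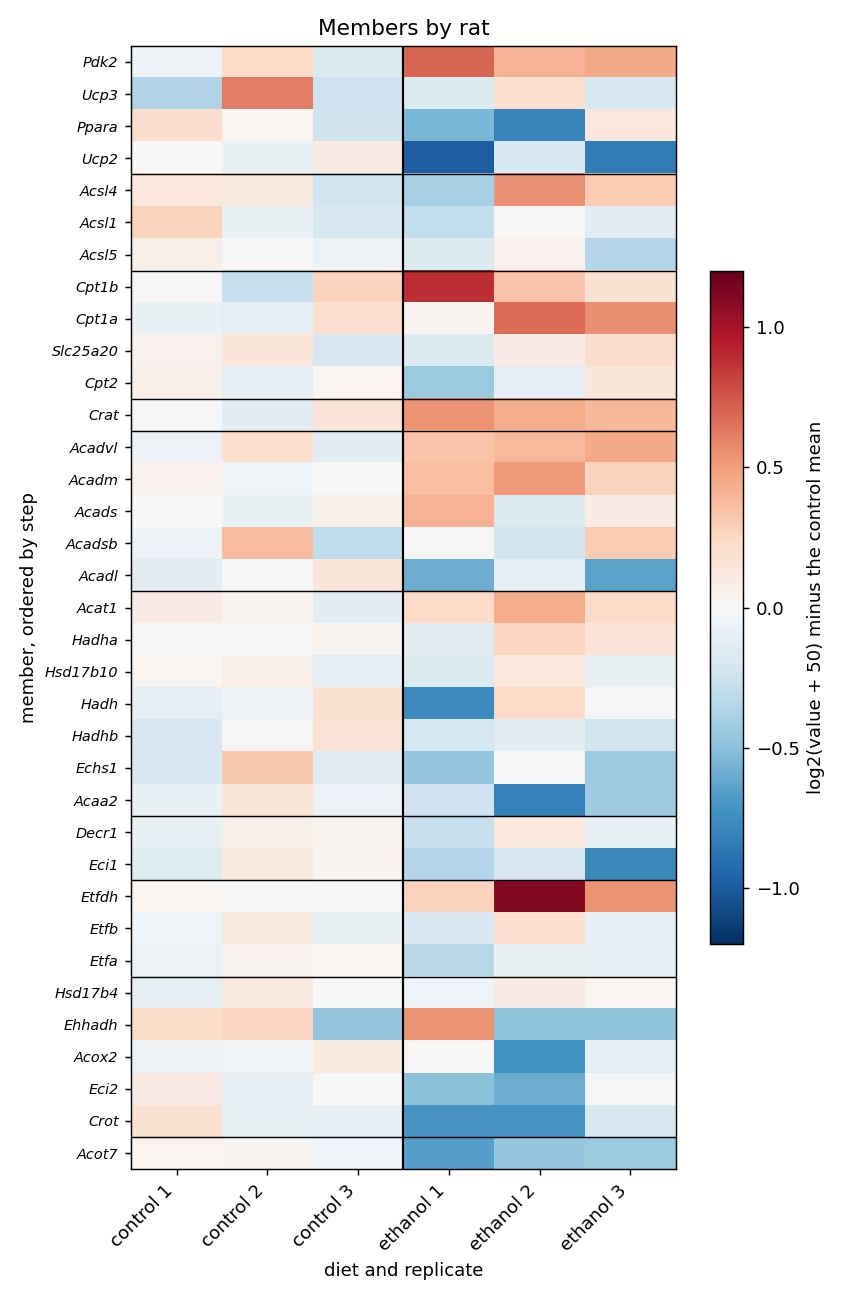
Heat map of the 35 tested members (rows, ordered by step from regulators at the top to the thioesterase at the bottom, with lines between steps) in the 6 rats (columns); colour gives log2(value + 50) minus the control mean, red above and blue below. Pdk2, Crat, Acadvl, Acadm and Etfdh are red in all 3 ethanol columns, and Ucp2, Crot, Eci1, Acaa2 and Acot7 are blue in all 3. Cpt1a, Cpt1b and Acat1 also lie above 0 in all 3, and Acadl, Hadhb, Etfa and Eci2 below 0 in all 3, some of them faintly.

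Of 5 members with 2 tested probe sets, Acsl1, Cpt1a, Crot and Pdk2 had the same sign on both, and Hadh had opposite signs. The values lay far apart for Hadh, at -0.19 and 0.47, and for Acsl1, at -0.13 and -0.71.

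Among 56 other genes of the pathway, 44 had a probe set, and 9 of these were too dim to be tested. The other 35 were tested and none changed by limma. At an unadjusted p under 0.05, 3 were higher (8.57%) and 1 was lower (2.86%), beside 7.64% and 11.2% of all tested genes, and the median was -0.02. Pdk4, a kinase of the same family as Pdk2 and a known PPARA target, read 393, 899 and 543 in control rats and 771, 1890 and 1596 in ethanol rats, with ethanol replicate 1 inside the control range (log2 change 1.13, SE 0.37, limma adjusted p = 0.169). Dbi, the acyl-CoA binding protein, read 2975, 3071 and 2993 against 3638, 4566 and 4709, without overlap (0.50, SE 0.15, limma adjusted p = 0.156). Pecr, a peroxisomal enoyl-CoA reductase, was also higher (0.40, SE 0.14, limma adjusted p = 0.193). Mlycd, which breaks down the malonyl-CoA that inhibits Cpt1a, read 4141, 4619 and 5561 against 3774, 3527 and 3447, lower in every ethanol rat (-0.40, SE 0.16, limma adjusted p = 0.227). Ech1 and Gcdh, which with Pecr had the highest means of this list, had log2 changes of -0.32 and -0.16. Acot12, a thioesterase too dim on average to be tested, read 133, -32 and 174 in control rats and 417, 715 and 501 in ethanol rats.

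Of 22 genes of peroxisome assembly and content, 8 were tested and none changed by limma, with a median of 0.05. At an unadjusted p under 0.05, 0 were higher and 1 was lower (12.5%), beside 7.64% and 11.2% of all tested genes. That gene was Pxmp2, a channel of the peroxisomal membrane, which read 758, 822 and 750 in control rats and 504, 481 and 440 in ethanol rats (log2 change -0.66, SE 0.14, limma adjusted p = 0.086). Catalase (Cat) had a log2 change of 0.11 and Uox one of 0.31. Pex5, the import receptor, was at 0.13.

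Markers of other cell types were read on the same arrays, and none of them changed by limma; the lowest adjusted p of any marker was 0.107, that of Hbb. For some lists the summed intensity did not overlap between diets, and it is given here with and without the gene of highest mean, a choice made after the values were seen. The sum of 6 of 9 listed adipocyte markers ran from 4226 to 6238 in control rats and from 7353 to 9433 in ethanol rats, and without Lpl from 1757 to 1971 and from 2308 to 3237. Lpl (0.77, SE 0.28, limma adjusted p = 0.201) and Cfd (0.69, SE 0.21, limma adjusted p = 0.158) were at an unadjusted p under 0.05. Plin4 was not (0.32, SE 0.24) and had overlapping groups, while Plin1, Lep and Lipe were too dim to be tested. The sum of 4 of 5 erythroid markers ran from 15433 to 22883 and from 25617 to 33312, and without Hbb the groups overlapped. Hbb was at 0.80 (SE 0.20), Hba-a3 at 0.64 and Alas2 at 0.58, each at an unadjusted p under 0.05. Over all tested genes, 7.64% were higher at that level. Slc4a1 did not reach it (0.18, SE 0.26) and had overlapping groups. The sum of 6 of 6 skeletal muscle markers ran from 5884 to 6819 and from 6824 to 7659, but without Myh1 from 1569 to 2023 and from 1132 to 2089, with Acta1, Myh4 and Mb at or below 0 on at least 1 array. The sum of 4 of 6 duct markers ran from 10603 to 11236 and from 9343 to 10373, and turned without Muc1, to 1794 to 2061 in control rats and 2109 to 2719 in ethanol rats. The acinar sum ran from 1056755 to 1064322 and from 1069323 to 1114656, also without overlap. Without Cpa1 it ran from 889927 to 902794 in control rats and from 903866 to 946014 in ethanol rats. Gene by gene, 6 of the 8 acinar markers overlapped between diets and none was at an unadjusted p under 0.05. Their changes were above 0 for 6 and below it for 2, with a median of 0.05. The sums for islet, immune, hepatocyte, brown fat and stellate markers overlapped between diets. The part of these cell types in the values of the members was not tested.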

How the data were processed

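Pancreas RNA was labelled and hybridised to 6 arrays, each taken as 1 rat. The authors deposited 1 intensity per probe set and array. The sources used here name neither software nor normalization. Background subtraction was inferred from the values (931 to 949 below 0 per array), which also show matched medians. From 15923 probe sets, 57 controls were left out. The platform annotation named 12783 probe sets with 1 symbol, 312 with several and 2771 with none.

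Values below 0 were set to 0, 50 was added and log2 taken. Probe sets whose mean log2 value reached the 40th percentile entered a fit with limma 3.58.1 in R 4.3.3 (linear model with empirical Bayes, Benjamini-Hochberg over 9520 probe sets). The fit was checked on simulated data with changes larger than that of any member, so changes of the members' size were not covered. The replicates were taken as separate rats, and 3 arrays per diet limit precision. Deviations of same-numbered rats correlated at -0.03, 0.03 and -0.14, so the numbers were not taken as pairs. The members and lists were chosen with earlier results of these data known. Values per rat are given for members at an unadjusted p under 0.05, for the 8 of highest mean and where probe sets differ in sign; genes of other lists are named at that p or among the 3 of highest mean, and the remaining ones with values were chosen after their values were seen. Alternatives covered the constant, normalization, filter, variance trend, block, probe set rule and each array left out.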

Additional observations from a re-analysis of the deposited data

How the results depend on the processing

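The count of members that passed was 0 in 13 of 14 alternatives and 1 (Acot7) with an intensity trend. Over all probe sets 39 passed, but 12 with a constant of 20, 0 without the filter, 134 with the filter raised to the 60th percentile, 249 with an intensity trend, and 2 to 38 with 1 array left out. With the replicate block 6 passed, the higher members at an unadjusted p under 0.05 went from 5 to 3, and no call of a member changed. With 1 array left out the higher members ran from 3 to 7, the lower ones from 3 to 6, and the medians from -0.13 to 0.04 (mitochondrial) and from -0.42 to -0.048 (peroxisomal; -0.21 without Eci2). The sign held in all alternatives for 23 of 35 members. With 1 array left out it turned for 12, whose log2 changes ran from -0.047 to 0.42 (Acsl4), -0.053 to 0.15 (Slc25a20), -0.28 to 0.021 (Cpt2), -0.48 to 0.027 (Ehhadh), -0.036 to 0.086 (Hsd17b4), -0.040 to 0.25 (Acads), -0.12 to 0.22 (Acadsb), -0.40 to 0.11 (Hadh), -0.13 to 0.020 (Hsd17b10), -0.18 to 0.017 (Decr1), -0.15 to 0.040 (Etfb) and -0.24 to 0.25 (Ucp3). Hadh was at 0.14 with its probe sets averaged. The causes of these shifts were not tested. Dim signal left 7 members untested, and with 3 arrays per diet small changes are not resolved.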
